A study of Mus musculus with 9 samples.

Results

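The solute carriers are a large family of membrane transport proteins, and their genes are named Slc with a family number and a member number. In the normalized count table of cultured mouse hepatic stellate cells, 178 of 14020 genes had a symbol of that form. The genes described here had, in addition, a normalized count of at least 10 in 3 or more of the 9 libraries, and Slc7a5, Slc7a11 and Slc3a2 were left out by name. This left 114 genes of the 10118 that passed the same filter, after 61 rows fell below it. Of the 114, 112 encode carriers and 2, Slc4a1ap and Slc7a6os, carry a carrier's name but encode other proteins.

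The cells were hepatic stellate cells from mouse liver, grown for 4 days in DMEM with fetal bovine serum, glutamine and antibiotics and given no further treatment. There were 3 groups of 3 libraries: wild type (WT), Sqstm1 knock-out (Sqstm1 KO), and Nbr1 Sqstm1 double knock-out, written DKO here after its label. Sqstm1 encodes the autophagy receptor p62 and Nbr1 a related receptor. Strain, age, sex and the way the alleles were deleted were not given in the sources used here, and the labels do not say whether replicates were separate animals or cultures, so p-values measure the spread between these samples.

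The 9 libraries held 819677 to 1467793 counted reads. Sqstm1 fell from 223, 255 and 243 normalized counts in WT to 40.8, 30.8 and 86.8 in Sqstm1 KO and 25.8, 51.4 and 59.9 in DKO-labelled libraries. Nbr1 was at 106, 92.7 and 106 in WT, 75.5, 72.2 and 88.9 in Sqstm1 KO and 81.3, 79.9 and 111 in DKO-labelled libraries, so its values do not check the DKO label, and the series text speaks of an Nbr1 knock-out in place of these genotypes. Sqstm1 KO replicate 3 stood apart, with 12673 genes with reads against 13349 to 13794 in the others and a lowest correlation of 0.847 within its group. Of the 15 stellate cell markers listed, 11 were tested, with summed levels of 2094 to 2229 in WT, 5450 to 6349 in Sqstm1 KO and 4608 to 6793 in DKO-labelled libraries. Des, Lrat, Reln and Ngfr were not analysed here. The 11 did not move together. By the test defined below, 4 (Acta2, Col1a2, Col3a1 and Hand2) were higher in Sqstm1 KO than in WT, beside 2.43% of all genes. In the same comparison 1 was lower, beside 3.18%: Nes, with means of 103 in WT and 40.2 in Sqstm1 KO. Of 10 macrophage markers, 4 had values, with sums of 20.3 to 35.4, 8.68 to 12.3 and 14.3 to 29.3 in the 3 groups. The lower sum in Sqstm1 KO came from Cd14, with means of 17.6, 1.29 and 11.1. Cd68 averaged 4.28, 3.98 and 4.04, Csf1r 1.97, 3.05 and 3.2, and Mpeg1 1.77, 2.71 and 2.67. Of 7 endothelial markers 1 had values, at 9.7 to 16.3, 2.17 to 8.17 and 2.87 to 12.6. Portal fibroblast and mesothelial markers, 4 of 8, summed to 202 to 244, 231 to 432 and 313 to 323. Fbln2 held most of this sum, with means of 191, 338 and 297, and Igfbp6 went the other way, at 25.7, 2.3 and 11.6. Thy1 averaged 1.56, 5.97 and 3.86, and Wt1 0, 0 and 5.67. Cholangiocyte markers, 2 of 5, summed to 16.3 to 26.4, 29.2 to 34.7 and 25.8 to 49.1, and erythroid markers, 1 of 6, to 23 to 46.3, 4.34 to 16.3 and 8.92 to 15.3. Summed over 4 Y-linked genes, levels were 176 to 177 in WT, 0 in Sqstm1 KO and 76.5 to 112 in DKO-labelled libraries. These ranges did not overlap, so a difference in sex between the groups cannot be told apart from genotype in any of the comparisons. The part of these differences in the carrier results was not tested, and fewer cells of a type and less RNA per cell cannot be told apart.

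Solute carriers move amino acids, sugars, lactate, metals, nucleosides, vitamins and ions across the plasma membrane and the membranes of organelles. They work as facilitators or as exchangers and symporters that couple one solute to the gradient of another, and do not hydrolyse ATP themselves. Quiescent stellate cells store vitamin A, and when activated they take up nutrients for matrix synthesis and rely more on glycolysis, which requires lactate export.

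Few solute carrier genes were called between the genotypes, at shares close to those of all genes tested. The called genes were spread over 5 of 11 substrate groups, and a gene without a call may still have changed. The groups were set by gene family number and not by the solute of each gene, so a member may carry another solute. Of the 114 genes, 10 passed the test in at least 1 comparison and 104 in none, and the 10 gave 17 calls in all. The share of all genes that passed in at least 1 comparison was not counted, and shares per comparison are given below. A call is an adjusted p under 0.05 from limma's moderated linear model on log2 of the normalized count plus 1, adjusted over all 10118 genes. In Sqstm1 KO against WT, Slc43a1, Slc16a3 and Slc6a9 rose and Slc39a10 fell. In DKO against Sqstm1 KO, Slc44a3, Slc7a2, Slc6a17, Slc26a10 and Slc39a14 rose and Slc6a9 fell. In DKO against WT, Slc43a1, Slc44a3, Slc7a2, Slc16a3 and Slc39a14 rose. The counts include 1 called gene that is not reported by name. The comparisons share their groups, so a value that is high or low in 1 group enters 2 of them.

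These counts were close to the shares called among all genes tested. In Sqstm1 KO against WT, 5 of 114 members were called (4.39%) beside 5.61% of all genes, 3 of them higher (2.43% of all genes) and 2 lower (3.18%). In DKO against Sqstm1 KO, 7 were called (6.14%) beside 5.93%, 6 higher (4.42%) and 1 lower (1.51%). In DKO against WT, 5 were called (4.39%) beside 6.42%, 5 higher (4.11%) and 0 lower (2.31%); for that count of 0 by limma, 8 members were lower at an unadjusted p under 0.05, edgeR called 1 lower and DESeq2 called 4. With quantile normalization that comparison gave 5 higher and 4 lower, and with DESeq2 6 and 4. At an unadjusted p under 0.05 there were 20, 23 and 19 members in the 3 comparisons, in the order above, beside 19.4%, 18.8% and 21.4% of all genes. The values of the 2 groups did not overlap for 30, 30 and 34 members, beside 26%, 21% and 31.2% of all genes. They were higher in 12, 16 and 20 (12.4%, 11.5% and 15.7% of all genes) and lower in 18, 14 and 14 (13.6%, 9.47% and 15.5%). A fold change above 0 was found in 53, 63 and 59 members, beside 49%, 49.4% and 48.8%. Single libraries moved these counts. Without WT replicate 2 the 5 calls in Sqstm1 KO against WT became 1 higher and 0 lower, and without WT replicate 1 they became 2 higher and 0 lower. Without WT replicate 3 the same comparison gave 1 higher and 0 lower. In DKO against Sqstm1 KO, 2 were higher without any 1 of the DKO-labelled libraries. In that comparison the 1 lower call became 0 without DKO replicate 1, 3 without DKO replicate 2 and 3 without Sqstm1 KO replicate 3. Leaving out Sqstm1 KO replicate 3, the library that stood apart, gave 8 higher in DKO against Sqstm1 KO, and 9 higher and 5 lower in DKO against WT, while the counts in Sqstm1 KO against WT stayed at 3 and 2. The single lower call in DKO against WT seen without WT replicate 1 or Sqstm1 KO replicate 2 was not there with all libraries. The 5 higher calls in DKO against WT became 3 without WT replicate 1, 2 without WT replicate 2, 2 without DKO replicate 1 and 1 without DKO replicate 2 or 3. Lower calls in Sqstm1 KO against WT were 1 without any 1 of the DKO-labelled libraries. With any 1 DKO-labelled library left out, Slc44a3 and the called gene not reported by name fell below the filter. They were not tested in those fits, so part of the smaller counts there is missing tests and not lost calls.

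Fold changes of the 114 genes were centred near 0. Their median log2 fold change was -0.06 in Sqstm1 KO against WT (-0.01 over all genes tested), 0.09 in DKO against Sqstm1 KO (-0.01) and 0.05 in DKO against WT (-0.02). A change within 1 log2 unit in either direction was seen in 101, 95 and 103 genes, and the median SE of a log2 fold change was 0.40. Among the genes reported by name, the extremes were Slc46a3 (-1.89, not called) and Slc43a1 (2.87) in Sqstm1 KO against WT, Slc66a1 (-1.60, not called) and Slc7a2 (3.19) in DKO against Sqstm1 KO, and Slc5a3 (-1.42, not called) and Slc43a1 (3.74) in DKO against WT.

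**Figure D1:**
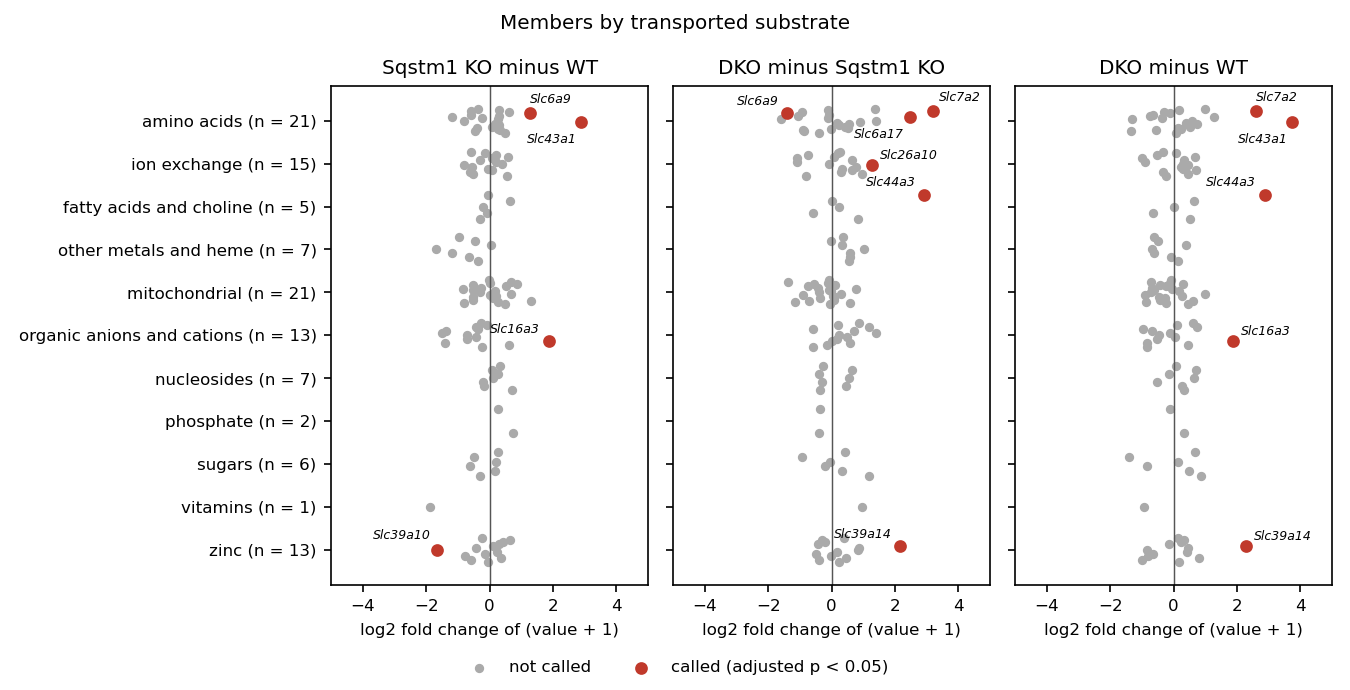
Log2 fold change of the normalized count plus 1 (horizontal axis) for 111 of the 112 carrier genes in 11 substrate groups (vertical axis), 1 panel per comparison; each point is 1 gene, red where it was called. Most points lie within 1 log2 unit of 0, and the called genes fall in 5 of the 11 groups.

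Amino acid carriers were one of the 2 largest groups and held 4 of the 10 called genes. Of 30 rows, 21 passed the filter, and 4 of these were called: Slc43a1, Slc6a9, Slc7a2 and Slc6a17. In Sqstm1 KO against WT 2 rose, beside 2.43% of all genes tested. In DKO against Sqstm1 KO 2 rose and 1 fell, beside 4.42% and 1.51% of all genes. In DKO against WT 2 rose, beside 4.11%. Shares of all genes are given per comparison, and whether calls gather in this group was not tested. The median log2 fold changes of the 21 were 0.23, -0.03 and 0.17.

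Slc43a1 encodes LAT3, a sodium-independent carrier of leucine and other large neutral amino acids. Its normalized count was 10.9, 9.79 and 12.7 in WT, 77.6, 64.1 and 132 in Sqstm1 KO, and 160, 138 and 188 in DKO-labelled libraries. Every mutant library was above every WT library, and every library labelled DKO was above every Sqstm1 KO library. The difference between DKO and Sqstm1 KO was not called by limma (log2 fold change 0.88, SE 0.30, adjusted p = 0.122). The mean rose from 11.1 ± 1.49 (SD, n = 3) in WT to 91.3 ± 36.1 in Sqstm1 KO (log2 fold change 2.87, SE 0.30, adjusted p = 6.42e-05) and 162 ± 25.3 in DKO (3.74, SE 0.30, adjusted p = 4.75e-06 against WT). Both calls were kept under all 19 alternatives run.

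Slc43a1 and Slc16a3, described further on, rose against WT in both mutant groups, and Slc44a3 rose in DKO against both other groups. Their promoters are shown because they let the start regions of genes with these different patterns be compared. The sequences are RefSeq's, build GRCm38.p6, from 250 bases before to 50 bases after the gene's start, written 5′ to 3′ on the gene's strand. They were searched on both strands for TGATGNAA (an amino acid response element), ACGTG (the core of the hypoxia response element), a kappaB site and TTCNNNGAA (a STAT site), and matches are in capitals. Slc43a1 lies at chr2:84840073-84840372 on the plus strand, Slc16a3 at chr11:120948817-120949116 on the plus strand and Slc44a3 at chr3:121532295-121532594 on the minus strand.

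Slc43a1: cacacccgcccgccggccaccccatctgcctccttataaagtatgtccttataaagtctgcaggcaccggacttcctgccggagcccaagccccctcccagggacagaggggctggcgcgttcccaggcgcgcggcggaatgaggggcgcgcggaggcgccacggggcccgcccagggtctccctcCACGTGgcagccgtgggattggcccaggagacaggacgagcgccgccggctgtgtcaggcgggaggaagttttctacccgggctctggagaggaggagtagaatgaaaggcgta

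Slc16a3: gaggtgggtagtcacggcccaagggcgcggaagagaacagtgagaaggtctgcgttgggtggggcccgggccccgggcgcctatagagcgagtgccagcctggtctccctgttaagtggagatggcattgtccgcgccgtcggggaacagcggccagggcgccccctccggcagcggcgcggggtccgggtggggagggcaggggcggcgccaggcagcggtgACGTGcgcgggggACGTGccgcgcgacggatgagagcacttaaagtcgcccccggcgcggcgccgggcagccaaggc

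Slc44a3: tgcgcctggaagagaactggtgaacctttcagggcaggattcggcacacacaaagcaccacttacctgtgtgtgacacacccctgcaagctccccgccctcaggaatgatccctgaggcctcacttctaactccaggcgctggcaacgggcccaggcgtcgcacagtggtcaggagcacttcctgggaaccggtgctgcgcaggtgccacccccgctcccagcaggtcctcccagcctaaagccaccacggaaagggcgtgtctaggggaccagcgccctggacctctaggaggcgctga

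The Slc43a1 promoter held ACGTG on both strands in 1 palindrome, beginning 64 bases before the start. In the Slc16a3 promoter ACGTG occurred at 27 and again at 14 bases before the start, and in the Slc44a3 promoter none of the 4 motifs occurred. Among the other called genes, the Slc26a10 promoter held TGATGNAA beginning 46 bases before the start, and 1 of 2 Slc39a10 promoters held TTCNNNGAA on both strands, beginning 82 bases before it. None of the 4 motifs occurred in this window in the 3 promoters of Slc6a9 or the 2 of Slc6a17. ACGTG was found in 19.6% of 32851 mouse promoters of this length and in 33 of 110 promoters of 82 of the genes described here (30%). For the other motifs the shares were 3.97% of all promoters and 3.64% of these (TGATGNAA), 1.63% and 0% (the kappaB site), and 8.3% and 4.55% (TTCNNNGAA). The promoters compared were not matched for expression or base content, and a gene could count with more than 1 promoter. Whether any motif is enriched was not tested. A match describes letters and not binding, and 7 of the 10 called genes had a promoter in the RefSeq set.

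Slc6a9 encodes GlyT1, which takes up glycine with sodium and chloride. It stood at 19.1, 16.6 and 20.6 in WT, 45.9, 42.2 and 52.1 in Sqstm1 KO and 13.4, 17.1 and 21.7 in DKO-labelled libraries. The Sqstm1 KO libraries were all above the other 6, and the WT and DKO ranges overlapped. The gene rose from 18.8 ± 2.04 to 46.7 ± 4.98 in Sqstm1 KO (log2 fold change 1.27, SE 0.31, adjusted p = 0.0266) and fell to 17.4 ± 4.14 in DKO (-1.40 against Sqstm1 KO, SE 0.31, adjusted p = 0.0141). The first call did not hold without WT replicate 1 (adjusted p = 0.0851), WT replicate 2 (0.14), WT replicate 3 (0.0768) or Sqstm1 KO replicate 1 (0.0695), and the second without DKO replicate 1 (0.0596) or with only the libraries of the compared groups (0.0512). Exons of Slc6a9 overlap Ccdc24 and B4galt2 on the opposite strand. Ccdc24 averaged 98.7 ± 13.7 in WT, 300 ± 111 in Sqstm1 KO and 153 ± 29.1 in DKO, and it was called higher in Sqstm1 KO against WT (1.54, SE 0.29, adjusted p = 0.00499). Because the sources used here do not give the strand setting of the counting, reads of Slc6a9 and Ccdc24 cannot be told apart where they overlap.

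Slc7a2 encodes CAT2, which imports arginine, lysine and ornithine. Its values were 5.45, 3.77 and 11.5 in WT, 6.13, 6.49 and 1.08 in Sqstm1 KO, and 40.2, 57.1 and 34.4 in DKO-labelled libraries, which were all above the other 6. The mean of 43.9 ± 11.8 in DKO stood beside 4.57 ± 3.02 in Sqstm1 KO (log2 fold change 3.19, SE 0.55, adjusted p = 0.00278) and 6.91 ± 4.08 in WT (2.59, SE 0.55, adjusted p = 0.0113). The call against Sqstm1 KO was kept in all 18 alternatives in which the gene was tested; a filter of 50 dropped it. The call against WT did not hold without WT replicate 1 (adjusted p = 0.0507), WT replicate 2 (0.0697), or DKO replicate 1 (0.0521), 2 (0.0569) or 3 (0.0503). Outside the DKO group 1 library reached the filter value of 10, so Slc7a2 passed the filter only with the libraries in which it was high. Its exons overlap Gm26584 on the opposite strand, which was not analysed here.

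Slc6a17 encodes a neutral amino acid carrier known from synaptic vesicles. It was at 12.3, 7.53 and 16.4 in WT, 9.19, 4.06 and 2.17 in Sqstm1 KO and 36.3, 27.4 and 25.5 in DKO-labelled libraries. It rose from 5.14 ± 3.63 in Sqstm1 KO to 29.7 ± 5.80 in DKO (log2 fold change 2.48, SE 0.48, adjusted p = 0.00619), and this call was kept in all 18 alternatives in which the gene was tested; a filter of 50 dropped it. Outside the DKO group 2 libraries reached 10, so Slc6a17 also met the filter only with DKO-labelled libraries.

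Amino acid starvation is known to induce several carriers through the transcription factor ATF4. Of 9 such carriers listed, 7 were tested, and Slc6a9 alone was called, higher in Sqstm1 KO against WT and lower in DKO against Sqstm1 KO. Slc38a2, the glutamine and alanine carrier SNAT2 and a member of that list, had 233, 241 and 222 in WT, 265, 342 and 196 in Sqstm1 KO and 350, 487 and 338 in DKO-labelled libraries, with no call (adjusted p = 0.124 in DKO against WT). The left-out carriers, given as values, stood at 27.2 ± 4.03, 81.5 ± 29.4 and 26.5 ± 9.74 for Slc7a5, the main leucine exchanger. They stood at 4.63 ± 2.55, 30.9 ± 16.4 and 14.7 ± 6.57 for Slc7a11, the cystine importer, and at 51.9 ± 3.82, 98.0 ± 16.6 and 76.6 ± 3.63 for Slc3a2, the heavy chain that both need. All 3 were called higher in Sqstm1 KO against WT: Slc7a5 (log2 fold change 1.49, adjusted p = 0.0221), Slc7a11 (2.45, adjusted p = 0.0108) and Slc3a2 (0.89, adjusted p = 0.0464). Slc7a5 was also called lower in DKO against Sqstm1 KO (-1.57, adjusted p = 0.0145), and none of the 3 enters the counts given here. Whether the calls of these 3 genes hold with a library left out is not reported here.

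**Figure D2:**
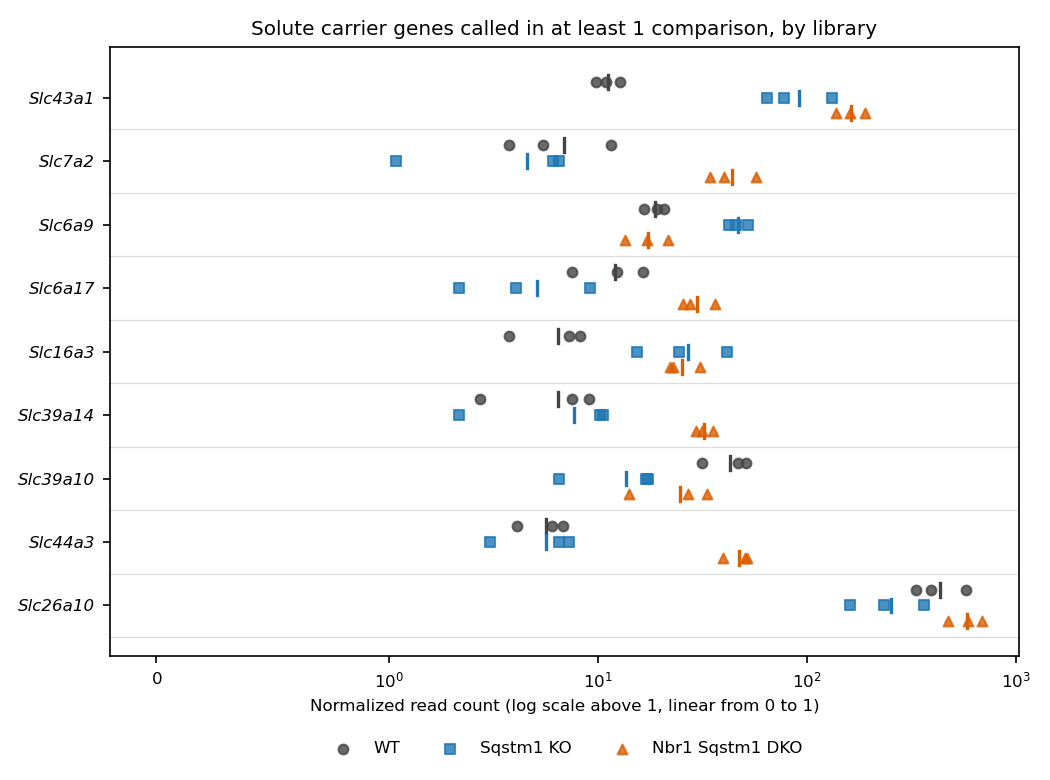
Normalized read count (horizontal axis, logarithmic above 1 and linear from 0 to 1) of 9 of the 10 called genes (vertical axis) in each of the 9 libraries; circles are WT, squares Sqstm1 KO, triangles the DKO-labelled libraries, and the short bars are group means. The Slc43a1 symbols of both mutant groups lie above all WT circles, and the DKO triangles of Slc7a2, Slc44a3 and Slc39a14 lie above the other 6 symbols.

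Of 14 carriers of monocarboxylates, organic anions and cations, 2 were called, among them Slc16a3. The fold change in Sqstm1 KO against WT was negative for 12 of the 14 genes, with a median log2 value of -0.43. In DKO against Sqstm1 KO it was positive for 11 of the 14, with a median of 0.36, and in DKO against WT the median was -0.02.

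Slc16a3 encodes MCT4, the proton-coupled carrier by which glycolytic cells export lactate. It was at 8.17, 3.77 and 7.28 in WT, 15.3, 24.3 and 41.2 in Sqstm1 KO and 22, 30.8 and 22.9 in DKO-labelled libraries. All 6 mutant libraries were above the WT libraries, and the mutant groups overlapped each other. The mean rose from 6.40 ± 2.33 in WT to 27.0 ± 13.1 in Sqstm1 KO (log2 fold change 1.86, SE 0.43, adjusted p = 0.0192) and 25.2 ± 4.85 in DKO (1.87, SE 0.43, adjusted p = 0.0169). The first call did not hold without WT replicate 2 (adjusted p = 0.114) or 3 (0.0518) or with only the libraries of the compared groups (0.0541), and the second without WT replicate 2 (0.0969) or DKO replicate 2 (0.0602) or 3 (0.0655). Of 7 lactate and glucose carriers listed, 3 were tested and Slc16a3 was the one called. Slc2a1, the basal glucose carrier GLUT1, averaged 18.4 ± 6.01 in WT, 14.3 ± 2.70 in Sqstm1 KO and 34 ± 9.21 in DKO, without a call (log2 fold change 1.18 in DKO against Sqstm1 KO, SE 0.36, adjusted p = 0.0769).

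Zinc carriers of the Slc30 family export zinc from the cytosol and those of the Slc39 family import it. Of 13 members limma called 2, both importers. In DKO against WT, edgeR and DESeq2 each also called 1 member lower, where limma called 0 lower. Slc39a14 encodes ZIP14, which also takes up iron and manganese and is well known in liver. It was at 2.72, 7.53 and 9.10 in WT, 10.2, 10.6 and 2.17 in Sqstm1 KO and 31.6, 35.4 and 29.3 in DKO-labelled libraries, which stood above all other libraries. The mean of 32.1 ± 3.08 in DKO was higher than 7.64 ± 4.74 in Sqstm1 KO (log2 fold change 2.15, SE 0.55, adjusted p = 0.0331) and 6.45 ± 3.32 in WT (2.27, SE 0.55, adjusted p = 0.0238). The call against Sqstm1 KO did not hold without WT replicate 2 (adjusted p = 0.0517), Sqstm1 KO replicate 3 (0.0539) or DKO replicate 1 (0.117), 2 (0.103) or 3 (0.125), or with the compared groups alone (0.0528). That against WT did not hold without WT replicate 1 (0.102) or 2 (0.065) or DKO replicate 1 (0.0872), 2 (0.0737) or 3 (0.0934). In WT and Sqstm1 KO together 2 libraries reached 10, so Slc39a14 passed the filter only with the libraries in which it was high.

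Slc39a10 encodes the plasma membrane zinc importer ZIP10. Its values were 31.3, 46.7 and 50.9 in WT, 17.4, 17 and 6.51 in Sqstm1 KO, and 26.8, 33.1 and 14 in DKO-labelled libraries, which overlapped both other groups. It fell from 43 ± 10.3 to 13.6 ± 6.17 in Sqstm1 KO (log2 fold change -1.67, SE 0.43, adjusted p = 0.0359). The call did not hold without WT replicate 1 (adjusted p = 0.0706), 2 (0.159) or 3 (0.15) or Sqstm1 KO replicate 3 (0.0611), or with the compared groups alone (0.0555).

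None of the 7 carriers of iron, copper, magnesium, manganese and heme was called by limma. In Sqstm1 KO against WT 6 of the 7 had negative fold changes, with a median log2 value of -0.65, 3 at an unadjusted p under 0.05 and 1 called lower by both edgeR and DESeq2; in the other comparisons the count was 0 at an unadjusted p under 0.05 and 0 by either tool. Slc41a1, a magnesium carrier, was at 16.3, 12.8 and 18.2 in WT, 4.08, 7.30 and 2.17 in Sqstm1 KO and 11.5, 11.4 and 6.37 in DKO-labelled libraries (log2 fold change -1.70 in Sqstm1 KO against WT, SE 0.48, adjusted p = 0.0554). It was called without Sqstm1 KO replicate 2 (0.0365) and with a pseudocount of 5 (0.044). Slc31a2, a copper carrier of internal membranes, averaged 40.4 ± 13.9 in WT, 16.6 ± 3.72 in Sqstm1 KO and 24.9 ± 3.54 in DKO (-1.20, SE 0.34, adjusted p = 0.0561), and edgeR (0.042) and DESeq2 (0.0372) called it. Of 9 tested genes for metal binding and iron handling, among them the zinc-induced metallothioneins Mt1 and Mt2, limma, edgeR and DESeq2 each called 0 in all 3 comparisons, and 0, 1 and 1 had an unadjusted p under 0.05.

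Slc44a3 encodes a choline transporter-like protein and was the 1 of 5 fatty acid and choline carriers that was called. It was at 4.09, 6.78 and 6.06 in WT, 3.06, 7.30 and 6.51 in Sqstm1 KO and 50.7, 51.4 and 39.5 in DKO-labelled libraries. The DKO libraries were far above the other 6, which overlapped. It rose to 47.2 ± 6.67 from 5.62 ± 2.25 in Sqstm1 KO (log2 fold change 2.92, SE 0.42, adjusted p = 0.00063) and 5.64 ± 1.40 in WT (2.87, SE 0.42, adjusted p = 0.000687), and both calls were kept in all 15 alternatives in which the gene was tested. It was not tested with any 1 DKO-labelled library left out, or with a filter of 50. Its exons overlap A530020G20Rik on the opposite strand, which was below the filter and averaged 0.453 ± 0.399 in WT, 0.611 ± 0.539 in Sqstm1 KO and 7.23 ± 2.17 in DKO. Slc44a3 was 1 of 2 among the 114 genes that reached 10 in no group but DKO, so the filter kept it through the group in which it was high.

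Of 15 exchangers of bicarbonate, chloride, sodium, calcium and protons, Slc26a10 was called. It belongs to the Slc26 family of anion exchangers. Its values were 575, 390 and 330 in WT, 232, 161 and 360 in Sqstm1 KO, and 473, 586 and 686 in DKO-labelled libraries, which were all above Sqstm1 KO and overlapped WT. The mean rose from 251 ± 101 in Sqstm1 KO to 582 ± 107 in DKO (log2 fold change 1.27, SE 0.32, adjusted p = 0.0312), with 432 ± 128 in WT. The call did not hold without WT replicate 2 (adjusted p = 0.0606), Sqstm1 KO replicate 1 (0.0804) or 2 (0.106), or DKO replicate 1 (0.0635), 2 (0.0868) or 3 (0.172), or with the compared groups alone (0.0711). Its exons overlap B4galnt1, which averaged a normalized count of 7.36, and the cause of the high Slc26a10 level was not tested. Of 7 ion carriers known from contractile cells 3 were tested, and limma, edgeR and DESeq2 called 0 of them in every comparison; 1, 3 and 1 had an unadjusted p under 0.05.

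The 21 mitochondrial carriers of the Slc25 family had no call by limma. An unadjusted p under 0.05 was found for 2, 3 and 3 of them in Sqstm1 KO against WT, DKO against Sqstm1 KO and DKO against WT. Across the same comparisons edgeR called 0 and DESeq2 called 0, 1 and 1, both lower. The fold change in DKO against WT was negative for 15 of the 21, with a median log2 value of -0.25 beside -0.02 over all genes tested. Slc25a3, which brings phosphate into mitochondria for ATP synthesis, was at 172, 181 and 187 in WT, 136, 137 and 164 in Sqstm1 KO and 111, 119 and 99.3 in DKO-labelled libraries. Its 3 groups did not overlap, yet no call was made (log2 fold change -0.71 in DKO against WT, SE 0.23, adjusted p = 0.0791). Without Sqstm1 KO replicate 3 it was called (0.0234), as it was with quantile normalization (0.0322), by DESeq2 (0.0432) and with the compared groups alone (0.0338). Slc25a5, an ADP/ATP exchanger encoded on the X chromosome, was at 44.4 ± 6.55, 72.8 ± 22.7 and 29.7 ± 15.2 in WT, Sqstm1 KO and DKO (-1.38 in DKO against Sqstm1 KO, SE 0.40, adjusted p = 0.0621); it was called without DKO replicate 2 (0.0426), with a pseudocount of 5 (0.0463) and by DESeq2 (0.0344).

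Sugar carriers, 6 members of 15 rows, had no call by limma or edgeR, and DESeq2 called 1 lower in DKO against WT; unadjusted p-values under 0.05 numbered 0, 2 and 2. Slc5a3, the osmotically regulated myo-inositol carrier, was at 31.3, 21.8 and 43.1 in WT, 32.7, 23.5 and 13 in Sqstm1 KO and 16.3, 10.3 and 7.64 in DKO-labelled libraries. Every DKO value was below every WT value (log2 fold change -1.42, SE 0.42, adjusted p = 0.0616), and the gene was called lower without Sqstm1 KO replicate 3 (0.0146), with quantile normalization (0.0312), by DESeq2 (0.0429) and with the compared groups alone (0.026). The 7 nucleoside and nucleotide sugar carriers, the 2 phosphate carriers and the single carrier in the vitamin and folate families had no call by limma, edgeR or DESeq2. In these 3 groups an unadjusted p under 0.05 was seen in Sqstm1 KO against WT alone, for 0, 1 and 1 genes. Slc29a1, the equilibrative nucleoside carrier ENT1, averaged 18.3 ± 5.07 in WT and 31.5 ± 11.8 in Sqstm1 KO (0.71, SE 0.39, adjusted p = 0.341). Slc35a4, of the nucleotide sugar carrier family, averaged 31.3 ± 4.68 in WT and 53 ± 19.3 in DKO (0.70, SE 0.33, adjusted p = 0.238).

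The phosphate carrier genes encode PiT-1 and PiT-2, which bring inorganic phosphate into the cell. Slc20a1 was at 139 ± 25.8, 244 ± 107 and 173 ± 15.7 in WT, Sqstm1 KO and DKO (log2 fold change 0.73 in Sqstm1 KO against WT, SE 0.30, adjusted p = 0.189). Slc20a2 was at 25.7 ± 2.55, 31.2 ± 6.30 and 23.7 ± 1.90 (-0.37 in DKO against Sqstm1 KO, SE 0.30, adjusted p = 0.537). Slc46a3, the vitamin family member, is a lysosomal carrier. It stood at 77.6, 53.5 and 44.3 in WT, 40.8, 20.3 and 3.25 in Sqstm1 KO and 37.3, 24 and 28 in DKO-labelled libraries (-1.89 in Sqstm1 KO against WT, SE 0.61, adjusted p = 0.0916), and a call was made without Sqstm1 KO replicate 1 (0.0153). Both mutant groups lay below WT in every library, with the lowest value in the Sqstm1 KO library that stood apart. Autophagy delivers cargo to lysosomes, whose carriers return the products of digestion to the cytosol. Of 12 lysosomal carriers listed 6 were tested, and limma, edgeR and DESeq2 each called 0 in all 3 comparisons; 1, 1 and 2 had an unadjusted p under 0.05, each lower.

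Levels were compared between genes per length, as the mean normalized count of 9 libraries per kilobase of annotated exon. This scaling holds only where reads spread along the whole transcript, and the sources used here do not name the library kit. The highest was Slc24a5, a sodium, calcium and potassium exchanger known from melanosomes, at 700 per kb, and the second Slc26a10 at 105. Next came Slc3a1 (94.9), a subunit of the cystine and basic amino acid carrier of kidney and gut, and Slc25a4 (88.8), an ADP/ATP exchanger. Slc18a2, the vesicular monoamine carrier, was at 55.6 per kb and Slc5a2, the glucose carrier of the kidney tubule, at 48.6. They were followed by Slc25a26 (45.9), which imports S-adenosylmethionine into mitochondria, the zinc importer Slc39a1 (40.2), Slc38a2 (33.6) and Slc20a1 (33.2). Of these 10, Slc26a10 was the one called between genotypes. Slc24a5 averaged 1501 ± 379 in WT, 1532 ± 682 in Sqstm1 KO and 1857 ± 435 in DKO (normalized counts), and held 16% to 27.9% of all reads of the 114 genes. Slc18a2 was nearest to a call, at 381 ± 68.8, 294 ± 65.2 and 197 ± 48.6 (log2 fold change -0.96 in DKO against WT, SE 0.28, adjusted p = 0.0543).

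Of these 10 genes, 7 have exons that overlap another gene on the opposite strand, beside 34 of the other 103 genes matched to the annotation (33%). Slc24a5 lies opposite Myef2, which averaged 10.2 per kb, so the Slc24a5 level per kb was 68.5 times that of its partner. On the same scale Slc26a10 was at 49.1 times the level of B4galnt1, Slc3a1 at 26.2 times that of Prepl and Slc25a26 at 5.38 times that of Lrig1. Over 26 such pairs with values for both genes, the solute carrier had the higher level per kb in 17 and the partner in 9. Among all 113 matched genes 41 had such an overlap (36.3%), beside 39.7% of all tested genes that were matched. Reads of overlapping genes cannot be told apart without the strand setting, and whether reads were counted on the opposite strand was not tested. Of the 10 called genes 6 have no such overlap, and over the 72 genes without one the median log2 fold changes were 0.06, 0.01 and -0.08.

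**Figure D3:**
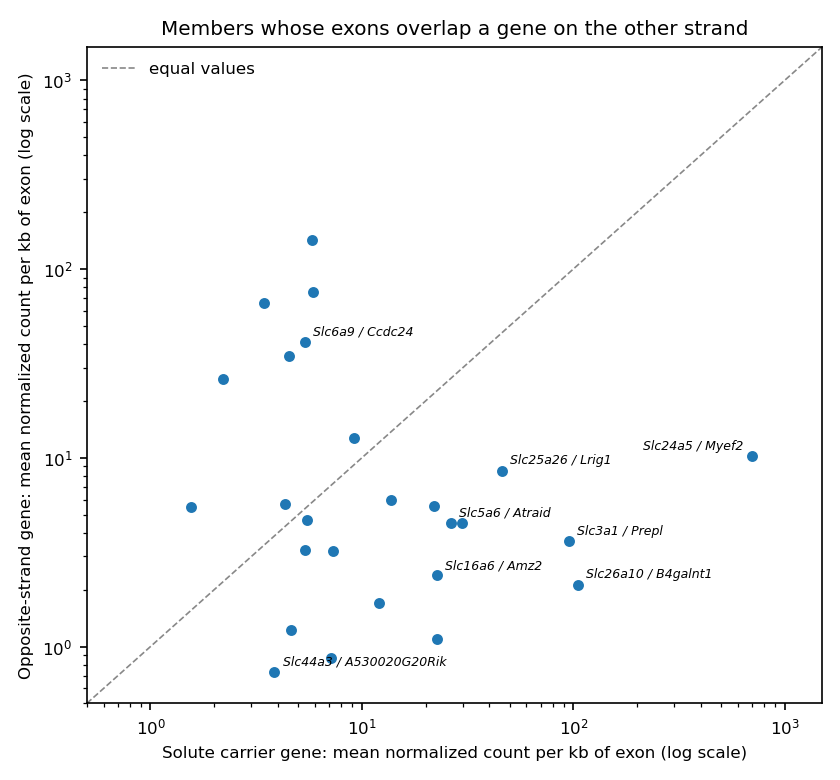
Mean normalized count over 9 libraries per kilobase of annotated exon, of a solute carrier gene (horizontal axis, log scale) and of the gene whose exons overlap it on the other strand (vertical axis, log scale), for 26 pairs; the dashed line marks equal values. In 17 pairs the solute carrier lies to the right of the line, with Slc24a5 and Slc26a10 farthest out.

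Most of the 114 genes were at modest levels, with a median of member means of 27.0 normalized counts (30.2 over all genes tested), 86 genes under 50 and 13 at 100 or more. Together they took 0.683% to 0.689% of reads in WT, 0.572% to 0.623% in Sqstm1 KO and 0.701% to 0.712% in DKO-labelled libraries. Without Slc24a5 the shares were 0.511% to 0.556%, 0.415% to 0.524% and 0.505% to 0.576%, and the 3 groups overlapped. Of the 10 called genes, 6 rested on fewer than 200 reads over the 9 libraries. Just inside the filter, by the third-highest library, were Slc30a1, Slc35a2 and Slc15a4 (10.2 each), and just outside it were Slc49a4 (9.74) and Slc25a12 (9.76).

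Transport is shared with genes outside this naming rule, and a few of these changed. The shares of all genes called are those given above. Of 19 ABC transporters tested, which use ATP, Abca1 was called lower in Sqstm1 KO against WT and higher in DKO against Sqstm1 KO, and Abcc3 higher in DKO against WT. Abca1, which exports cholesterol to apolipoproteins, was at 40.9, 41.4 and 40.6 in WT, 10.2, 13 and 4.34 in Sqstm1 KO and 28.7, 40 and 31.8 in DKO-labelled libraries. It fell by 2.16 on the log2 scale in Sqstm1 KO (SE 0.37, adjusted p = 0.00327) and rose by 1.86 in DKO against Sqstm1 KO (SE 0.37, adjusted p = 0.0077). Abcc3, an exporter of organic anion conjugates, rose from 2.52 ± 2.56 in WT to 23.9 ± 12.1 in DKO (2.91, SE 0.73, adjusted p = 0.0276), a call lost without WT replicate 1 (0.0991) or 2 (0.141). It reached 10 in DKO-labelled libraries alone, so it passed the filter through the group in which it was high. Among 26 solute carriers with other symbols, the organic anion carrier Slco3a1 rose in DKO against WT from 12.5 ± 2.83 to 58.4 ± 23 (2.07, SE 0.45, adjusted p = 0.0122). That call did not hold without WT replicate 1 (0.0596) or DKO replicate 1 (0.07) or 2 (0.0504).

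Letm1, an ion exchanger of the inner mitochondrial membrane, averaged 39.2 ± 3.84 in WT, 41.4 ± 14.2 in Sqstm1 KO and 14.7 ± 2.88 in DKO, and it fell in DKO against Sqstm1 KO (log2 fold change -1.39, SE 0.32, adjusted p = 0.0191) and against WT (-1.37, SE 0.32, adjusted p = 0.0206). The first of these calls did not hold without DKO replicate 2 (adjusted p = 0.0654) or 3 (0.0537) or with the compared groups alone (0.0799), and the second without WT replicate 1 (0.0813), 2 (0.0854) or 3 (0.0755) or DKO replicate 2 (0.0611) or 3 (0.0588). Ank, which exports pyrophosphate and ATP, was at 21.8, 28.6 and 29.7 in WT and 6.69, 7.99 and 10.2 in DKO-labelled libraries (-1.58, SE 0.44, adjusted p = 0.0465). Its call was lost in 7 of the 9 fits that left out a library, with WT replicate 1 (0.089), 2 (0.183) or 3 (0.18), Sqstm1 KO replicate 2 (0.0513) or DKO replicate 1 (0.139), 2 (0.0881) or 3 (0.0958) left out, and with a pseudocount of 0.5 (0.0504). Of 9 ion-pumping ATPases tested, limma, edgeR and DESeq2 each called 0 in all 3 comparisons, and 0, 0 and 2 had an unadjusted p under 0.05.

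Of 13 tested partners and regulators of carriers, 4 rose in DKO against Sqstm1 KO and 3 in DKO against WT, beside 4.42% and 4.11% of all genes called higher. This list was chosen with earlier results of these data known, so whether such genes change more often than others was not tested. Arrdc4 and Emb reached 10 in DKO-labelled libraries alone, so they passed the filter only through the group in which they were high. The α-arrestins Arrdc3 and Arrdc4 are adaptors that lead membrane proteins to ubiquitination and endocytosis. Arrdc3 was at 9.53, 6.78 and 12.1 in WT, 7.15, 13 and 13 in Sqstm1 KO and 49.7, 47.9 and 35.7 in DKO-labelled libraries (log2 fold change 1.94 against Sqstm1 KO, SE 0.38, adjusted p = 0.00619, and 2.13 against WT, adjusted p = 0.00321). Arrdc4 rose to 25.6 ± 9.38 in DKO (2.14 against Sqstm1 KO, SE 0.46, adjusted p = 0.0116, and 2.37 against WT, adjusted p = 0.00628). Nherf1, a scaffold that holds carriers at the membrane, was at 62.2, 63.9 and 68.8 in DKO-labelled libraries and at 6.81 to 26.5 in the other 6. It rose by 2.32 on the log2 scale against WT (SE 0.37, adjusted p = 0.00155) and by 1.56 against Sqstm1 KO (adjusted p = 0.0231), the latter lost without Sqstm1 KO replicate 2 (0.0845) or DKO replicate 1 (0.0727), 2 (0.0613) or 3 (0.107). Emb, which escorts monocarboxylate carriers to the membrane, was at 12.4, 16 and 17.8 in DKO-labelled libraries and at 2.04, 0 and 3.25 in Sqstm1 KO (2.79, SE 0.63, adjusted p = 0.017), a call lost without Sqstm1 KO replicate 2 (0.0574). Bsg, the related chaperone of MCT4, averaged 298 in WT, 264 in Sqstm1 KO and 304 in DKO and was not called.

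**Figure D4:**
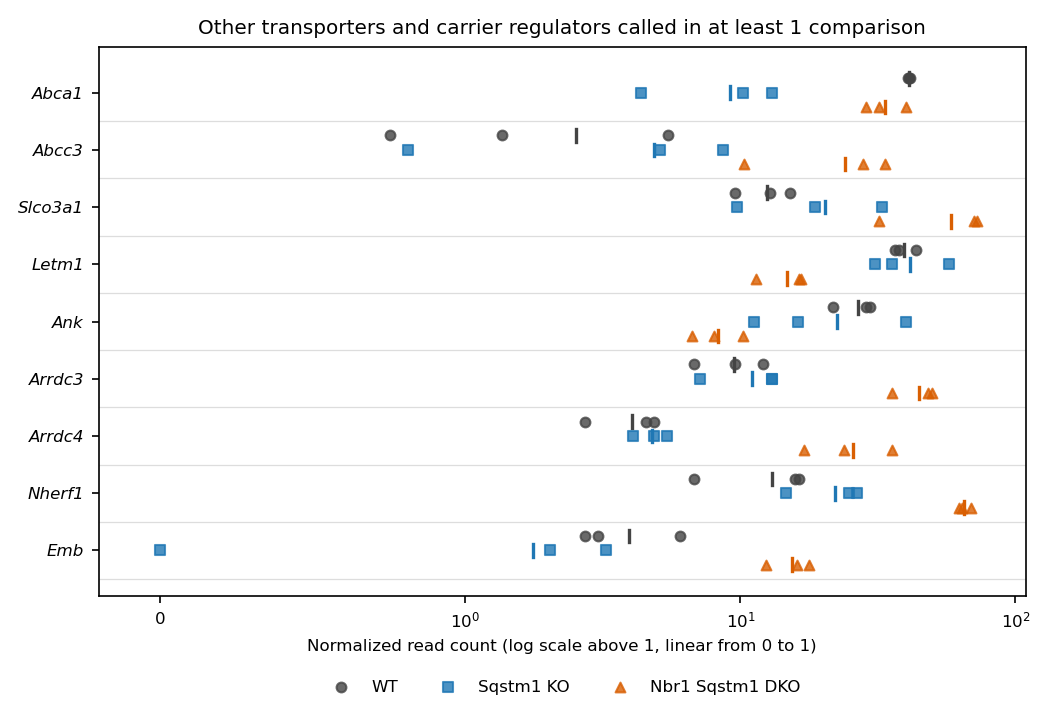
Normalized read count (horizontal axis, logarithmic above 1 and linear from 0 to 1) in each of the 9 libraries for the called genes of the ABC transporter, other solute carrier and carrier partner lists (vertical axis); circles are WT, squares Sqstm1 KO, triangles the DKO-labelled libraries, and short bars group means. The triangles of Arrdc3, Arrdc4, Nherf1 and Emb lie above all other symbols of their row, and the Abca1 squares lie below.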

How the data were processed

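RNA-seq values of 9 libraries came from 1 table of 14020 genes, with 0 columns left unused. The authors deposited signal values, which are read counts per gene divided by 1 size factor per library, as the values show. Per the submitters' processing notes STAR, DESeq2 and the build GRCm39 were used, with no versions; the sources used here do not name the read counter, annotation, library kit or strandedness. Whole reads were recovered by dividing by each library's smallest value (100% of 121126 values above 0 were whole within 0.01), and edgeR on them called 642, 614 and 735 genes in Sqstm1 KO against WT, DKO against Sqstm1 KO and DKO against WT.

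Tests used limma 3.58.1 in R 4.3.3 (trend of variance with mean) on log2(value + 1), over 9 libraries in 3 groups without covariates, for genes that reached 10 in 3 or more libraries. They were two-sided, with a moderated total of 14 degrees of freedom (limma's prior included) and Benjamini-Hochberg adjustment over all 10118 genes. A fold change on this scale understates that of low genes, and an exact permutation test of 3 against 3 cannot go below 0.1. Errors are SD of 3 libraries or the model's SE. The fit was tested on simulated data. Alternatives were edgeR 4.0.16, DESeq2 1.42.0, other pseudocounts, filters and scalings, 2-group fits, a replicate block and leaving out each library.

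Members, lists and role groups, by family number, were chosen with earlier results of these data known. Named genes were all called members, the 10 highest per kb, the 2 of smallest p in each role group without a call, the 3 on each side of the filter, and called genes of related lists; Slc38a2 and Slc18a2 have library or test values since they are among the 10 highest, and Slc66a1 was named for its extreme fold change after its values were seen. Some genes of this rule are not reported here by name. Of 10 hepatocyte and 5 lymphocyte markers listed, 0 had values to analyse. Exon lengths and overlaps came from GENCODE for mouse on GRCm38, matched by symbol.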

Additional observations from a re-analysis of the deposited data

How the results depend on the processing

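No result reversed, and 7 of the 17 calls were kept under every alternative in which the gene was tested. The counts below are for genes higher and lower in Sqstm1 KO against WT, then DKO against Sqstm1 KO, then DKO against WT, and were 3 and 2, 6 and 1, and 5 and 0 in the reported fit. With genes at 50 or more in at least 3 libraries they were 1 and 0, 1 and 0, and 1 and 2. With a mean of at least 10 they were 3 and 1, 5 and 1, and 5 and 0, and without a filter 3 and 3, 7 and 1, and 5 and 1. A pseudocount of 5 gave 3 and 2, 7 and 2, and 6 and 2, and quantile normalization 3 and 2, 6 and 1, and 5 and 4. By edgeR on recovered reads they were 3 and 3, 6 and 1, and 5 and 1, and by DESeq2 3 and 3, 7 and 2, and 6 and 4. With the libraries of the 2 groups compared alone they were 2 and 1, 4 and 0, and 9 and 4. Among members without an opposite-strand overlap they were 2 and 2, 3 and 0, and 3 and 0, since fewer genes enter. Leaving out 1 library gave 1 to 3 and 0 to 3, 2 to 8 and 0 to 3, and 1 to 9 and 0 to 5. With a filter of 50, or with a DKO-labelled library left out, some called genes fell below the filter and were not tested. The cause of the other differences was not tested.

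With a replicate block the counts were 3 and 4, 7 and 2, and 5 and 1; Slc31a2 (adjusted p = 0.0431), Slc25a5 (0.0329), Slc5a3 (0.0487) and Slc46a3 (0.0293) were called there. The shared numbers were not taken as pairs: deviations of same-numbered libraries had correlations of -0.115 to 0.178, and 5 of 9 libraries correlated best with their own number. Under 200 reads lie behind 6 of the 10 called genes, which limits their precision.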
